A study of Homo sapiens with 12 samples.

Results

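The cadherin superfamily was examined in IMR32, an established human line derived from neuroblastoma, in which the gene of the transcription factor MYCN is amplified. Its members were taken by symbol from the deposited table: the numbered CDH and PCDH genes, the alpha, beta and gamma protocadherin clusters, CELSR1 to CELSR3, FAT1 to FAT4, DCHS1 and DCHS2. These were 97 of 27514 listed genes. RNA was sequenced from 12 samples of this 1 cell line in 4 groups of 3, taken 72 h after Nucleofector electroporation of siRNA. The groups were siCtrl, which received a control siRNA, siMYCN and siHAND2, in which the siRNA targeted MYCN or the transcription factor HAND2, and siMYCN+siHAND2, which received both targeting siRNAs and is called the combined knockdown here. All groups, controls included, had been electroporated, and the labels do not say whether the 3 samples of a group came from separate cultures. The p-values therefore measure the spread between these samples, which may be technical.

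Cadherins are calcium-dependent adhesion proteins of the cell surface. Classical cadherins of types I and II join neighbouring cells and anchor to actin through catenins, and neural crest cells, from which neuroblastoma arises, change their classical cadherins as they migrate and settle. Clustered protocadherins are switched on in small, cell-specific sets by choice among many promoters laid out in a row, and give neurons a surface identity. Delta protocadherins act in axon growth and cell sorting, FAT and DCHS proteins are giant cadherins that bind each other across cell borders, and CELSR cadherins are receptors of planar cell polarity and axon guidance.

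The members fell into 53 clustered protocadherins (15 alpha, 16 beta and 22 gamma) and 44 non-clustered genes. The clusters lie side by side on chromosome 5 (hg19), the first alpha gene starting at 140165721 and the gamma genes ending at or within a few bases of 140892547. In the alpha and gamma clusters a long first exon, with its own promoter, is spliced to exons that the cluster shares. All 15 alpha genes therefore share the listed end 140391930, and reads from the shared exons do not tell the genes apart. The beta genes have no shared exons.

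Promoters of the clustered genes that lead the results below are shown, because promoter choice is what sets the genes of a cluster apart. The windows run from 250 bases before to 50 bases after a transcription start (RefSeq, GRCh38.p14, 5′ to 3′). Capitals mark TGGCGCT and TGTCGCT, which hold the CGCT core of the element shared by protocadherin promoters, and the E-boxes CACGTG and CATCTG, of a kind bound by factors of the MYC and HAND families. Each was searched on both strands, so that capitals may show the reverse complement, and overlaps were allowed. The core stretches were chosen after the windows had been read.
PCDHA8 (chr5:140840937-140841236, plus strand): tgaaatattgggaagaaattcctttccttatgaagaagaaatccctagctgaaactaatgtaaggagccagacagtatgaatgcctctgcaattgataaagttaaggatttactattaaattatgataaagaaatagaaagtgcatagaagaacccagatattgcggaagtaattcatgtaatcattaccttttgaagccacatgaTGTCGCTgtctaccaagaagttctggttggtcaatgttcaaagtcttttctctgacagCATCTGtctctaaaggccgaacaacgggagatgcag
PCDHA11 (chr5:140868707-140869006, plus strand): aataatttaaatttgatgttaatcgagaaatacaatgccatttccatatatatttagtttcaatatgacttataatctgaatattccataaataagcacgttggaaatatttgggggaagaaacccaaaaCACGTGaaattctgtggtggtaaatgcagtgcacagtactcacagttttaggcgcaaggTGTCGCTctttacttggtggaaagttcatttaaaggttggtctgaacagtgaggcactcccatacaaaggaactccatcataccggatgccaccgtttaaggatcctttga
PCDHAC1 (chr5:140926049-140926348, plus strand): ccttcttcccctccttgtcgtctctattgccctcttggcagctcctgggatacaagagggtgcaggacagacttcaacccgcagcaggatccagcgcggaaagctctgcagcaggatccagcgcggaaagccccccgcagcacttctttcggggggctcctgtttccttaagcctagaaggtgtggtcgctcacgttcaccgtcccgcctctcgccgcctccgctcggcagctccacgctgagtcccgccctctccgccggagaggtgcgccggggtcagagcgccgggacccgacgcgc
PCDHB9 (chr5:141186911-141187210, plus strand): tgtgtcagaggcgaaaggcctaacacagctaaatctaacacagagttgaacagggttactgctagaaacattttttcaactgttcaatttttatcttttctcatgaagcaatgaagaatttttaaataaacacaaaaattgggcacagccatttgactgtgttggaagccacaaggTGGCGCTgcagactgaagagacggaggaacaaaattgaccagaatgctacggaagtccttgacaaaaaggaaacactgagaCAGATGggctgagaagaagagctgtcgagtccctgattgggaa
PCDHB12 (chr5:141208469-141208768, plus strand): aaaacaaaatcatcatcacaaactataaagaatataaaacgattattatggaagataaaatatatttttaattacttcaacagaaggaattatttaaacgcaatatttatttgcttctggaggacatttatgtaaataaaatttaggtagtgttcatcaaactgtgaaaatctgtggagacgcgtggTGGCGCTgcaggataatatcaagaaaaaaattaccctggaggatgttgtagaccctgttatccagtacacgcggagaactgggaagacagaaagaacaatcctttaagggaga
PCDHB13 (chr5:141213669-141213968, plus strand): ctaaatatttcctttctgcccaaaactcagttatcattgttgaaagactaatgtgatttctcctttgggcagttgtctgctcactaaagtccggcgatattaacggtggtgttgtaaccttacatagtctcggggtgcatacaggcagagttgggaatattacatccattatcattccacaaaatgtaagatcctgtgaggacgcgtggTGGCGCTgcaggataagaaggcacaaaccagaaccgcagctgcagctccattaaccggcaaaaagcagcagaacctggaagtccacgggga
PCDHGB7 (chr5:141417427-141417726, plus strand): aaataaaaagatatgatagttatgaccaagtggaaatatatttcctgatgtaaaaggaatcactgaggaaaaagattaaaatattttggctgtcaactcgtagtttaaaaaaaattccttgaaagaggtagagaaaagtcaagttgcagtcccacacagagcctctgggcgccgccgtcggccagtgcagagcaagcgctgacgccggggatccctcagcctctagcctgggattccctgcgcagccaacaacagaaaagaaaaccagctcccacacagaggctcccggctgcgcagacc
Windows were found for 74 of the 97 members, 93 windows in all. TGGCGCT stood in the windows of 13 of 14 beta genes, against 4.08% of 35116 windows of all genes. It stood in none of 13 alpha genes and 3 of 20 gamma genes. TGTCGCT stood in 10 of 13 alpha genes, 1 of 14 beta genes and 3 of 20 gamma genes, against 1.76% of all windows. In the alpha genes it began 41 to 84 bases before the start. PCDHAC1 and PCDHAC2, the C-type genes at the end of the alpha cluster, and PCDHA9 held neither. CACGTG stood in PCDHA9, PCDHA10 and PCDHA11 and in no other member with a window (7.26% of all windows). CATCTG stood in 12 of the 74 genes, among them PCDHA8, PCDHB9 and CDH2 (14.7% of all windows). The windows of PCDHAC1 and PCDHGB7 held none of the 4 stretches and show no capitals. A match describes letters and not a bound site.

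Values were deposited as CPM (reads scaled to library size), with 0.0001 added to each. Estimated depth was 31.6 to 64.2 M reads per sample, so that 3 reads correspond to 0.0468 to 0.0949 CPM (counting error only). The listed genes held 44.3% to 65.8% of the CPM, and the lowest share was that of combined knockdown replicate 3, which stood apart from the other libraries. The share was lower in every knockdown sample than in every siCtrl sample, so results are also given after rescaling each sample by its median ratio to the other samples. From a siCtrl mean of 1009 CPM, MYCN fell to 681.6 with its siRNA alone and to 481.7 with both, and HAND2 fell from 239.4 to 62.3 and 73.55 likewise. With siMYCN alone HAND2 rose to 325.5 CPM (log2 change 0.44, limma adjusted p 0.0062), also after rescaling. In siHAND2 MYCN stood at 899, 844 and 802 CPM, below every siCtrl sample. That change was not called (−0.25, limma adjusted p 0.086), and the samples overlapped siCtrl after rescaling (−0.09, 0.26). Of 8 noradrenergic neuroblastoma markers 7 had a mean of at least 1 CPM and TH, the enzyme that starts catecholamine synthesis, did not. The corresponding numbers were 3 of 7 for fibroblasts, 2 of 6 for epithelium, 1 of 4 for Schwann cells and 0 of 4 for blood. The summed noradrenergic markers were at 542 to 568 CPM in siCtrl, 714 to 741 in siMYCN, 649 to 702 in siHAND2 and 502 to 780 with both. Schwann markers were at 1.45 to 1.58 CPM in siCtrl, 2.56 to 3.21 in siMYCN, 1.87 to 2.21 in siHAND2 and 2.29 to 3.04 with both, and epithelial markers at 1.8 to 1.89, 1.98 to 2.41, 2.57 to 3.21 and 4.51 to 4.71. Their part in the results below was not tested.

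The 12680 genes that averaged at least 1 CPM over the 12 samples were tested with limma on log2(CPM + 1). A gene is called changed at a Benjamini-Hochberg adjusted p under 0.05 over those genes. Of the members, 47 were tested and 50 lay below the filter, 31 of them clustered and 19 not. Fold changes are log2 differences of CPM + 1, which understates the change of low genes. The comparisons with siCtrl share the same 3 siCtrl samples.

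In siMYCN 25 of the 47 tested members rose and 2 fell, where 17.4% of all tested genes rose and 16.3% fell. In siHAND2 26 rose and 7 fell (12.3% and 30.4% of all genes), and in the combined knockdown 31 rose and 9 fell (17.4% and 50.1%). In either direction 67.4% of all genes were called in the last of these. After rescaling, the counts of members were 26 and 4, 27 and 5, and 34 and 7 of 46. On that scale 25.4% of all genes rose and 22.4% fell in siMYCN. The shares were 26% and 24.8% in siHAND2 and 37.8% and 32.9% with both siRNAs. Without combined knockdown replicate 3, 31 members rose and 7 fell in the combined knockdown (22.2% and 45.7% of all genes). All 3 samples lay above all siCtrl samples for 31 members in siMYCN and below them for 6, where these shares were 31.4% and 29.6% of all genes. The counts were 28 and 8 in siHAND2 (17.8% and 45%) and 28 and 8 in the combined knockdown (16.7% and 48.3%). With the replicate number as a block 32 members rose and 3 fell in siMYCN, where 20.2% of all genes rose and 38.8% were called in either direction. Among the tested members, 11 had a siCtrl mean below 1 CPM and so passed the filter through knockdown samples, which favours rises in these counts. PCDHA11, PCDHB13, CDH4, CDH5 and CDH22, described below, are among them, and the adjusted p of their rises carries the same limit.

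**Figure D1:**
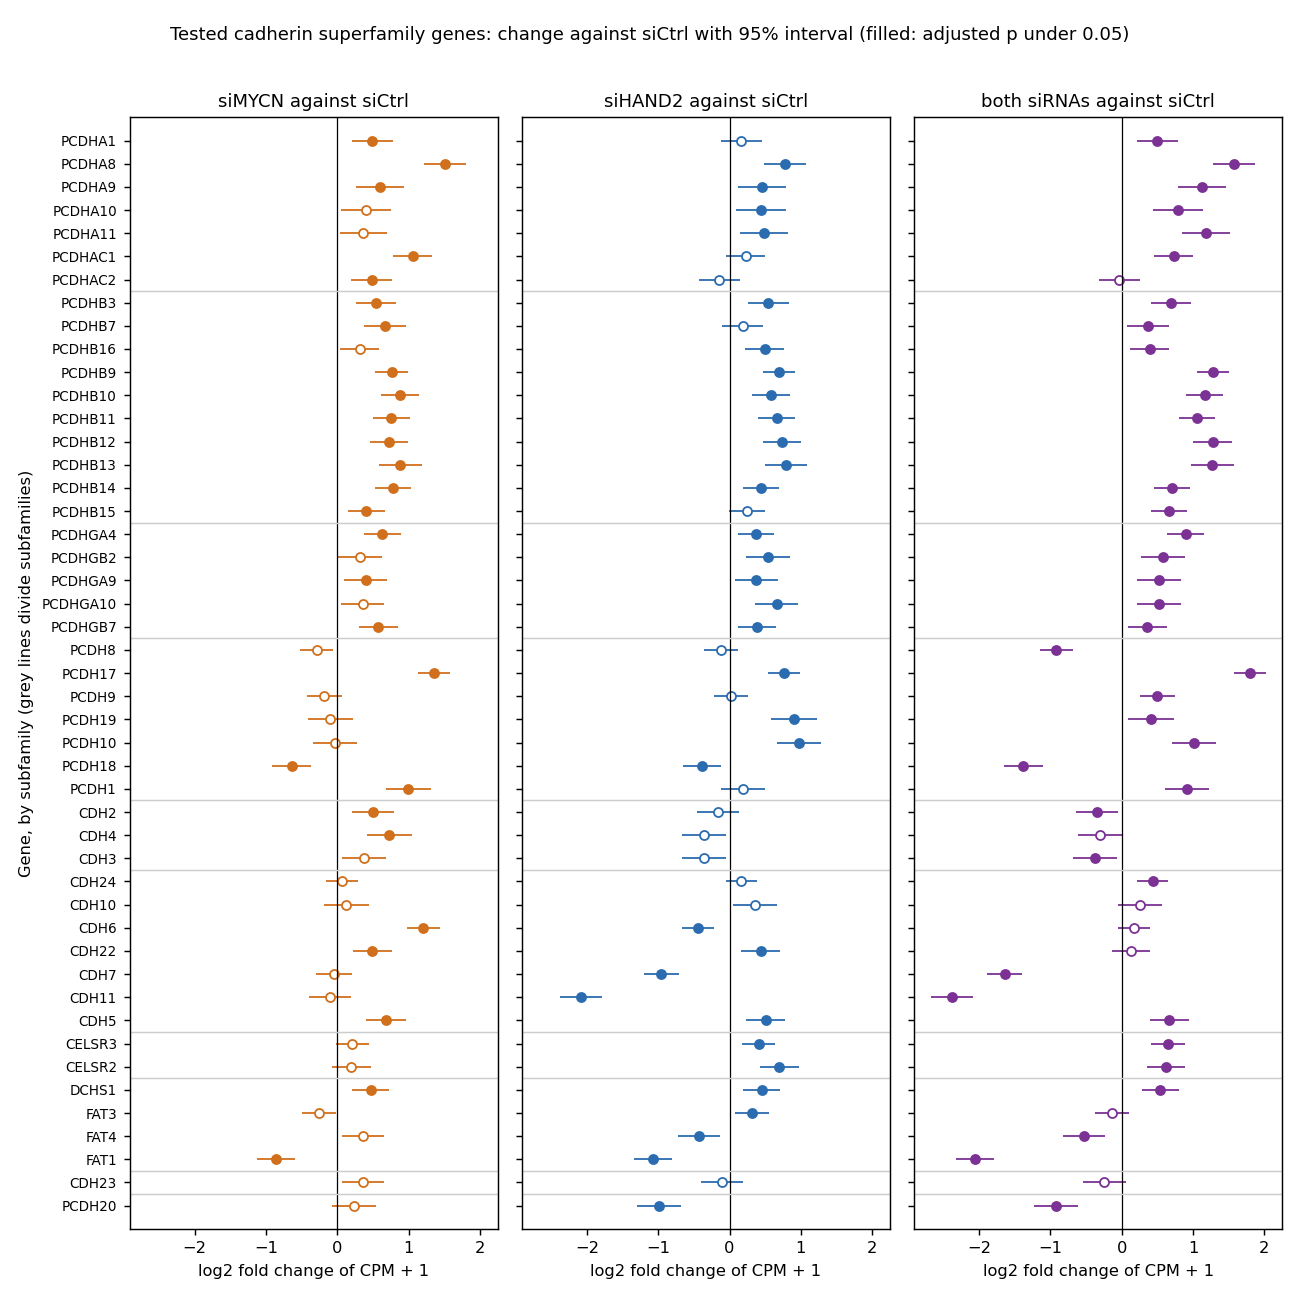
Log2 fold change of CPM + 1 against siCtrl with its 95% interval (limma) for the 47 tested cadherin superfamily genes, in siMYCN, siHAND2 and the combined knockdown. Filled points passed the adjusted p of 0.05. The 22 clustered protocadherins in the upper 3 blocks lie to the right of 0 except PCDHAC2 in siHAND2 and the combined knockdown, and the falls are in the other blocks, with CDH11 at −2.38 and FAT1 at −2.06 in the combined knockdown.

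The clustered protocadherins rose as a group of neighbours. Of the 22 tested, 17 rose in siMYCN, 17 in siHAND2 and 21 with both siRNAs (17.4%, 12.3% and 17.4% of all genes). None was called lower in any of these comparisons. With the replicate number as a block, which pairs same-numbered samples of all 4 groups, 21 rose in siMYCN (20.2% of all genes). Their median log2 changes were 0.59, 0.47 and 0.71, against 0.01, −0.14 and −0.28 for all tested genes. After rescaling the counts were 18, 16 and 22 (25.4%, 26% and 37.8% of all genes) and the medians 0.58, 0.56 and 1.02. Since 8 of the 22 had a siCtrl mean below 1 CPM, the fit was repeated with the filter on the siCtrl mean alone, an alternative chosen after seeing the data. Then 13 of 14 rose in siMYCN (16.5% of all genes), 12 of 14 in siHAND2 (11.2%) and 13 of 14 in the combined knockdown (15.8%). With no filter 21, 17 and 42 of the 53 clustered genes were called higher (9.35%, 7.95% and 14.4% of all genes), and none lower. Without combined knockdown replicate 3, 20 of 21 tested rose.

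Values of single clustered genes are uncertain. Of values below 200 reads, 95.7% to 100.0% in the non-clustered members came out as whole reads (within 0.05 read) but 0% to 25% in the alpha, 7.1% to 45.5% in the beta and 4.8% to 22.7% in the gamma cluster. How reads were assigned to these genes is not known, and 43 of the 97 members overlap another listed gene on the same strand. If reads were divided among genes, a single rise could lift several rows. Counts of clustered genes called are therefore not counts of separate observations, and how far this raised them was not tested. No beta gene overlaps another listed gene on its strand, and the sums over a cluster do not depend on how a read is shared out within it.

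The alpha cluster summed to 31.28, 34.94 and 29.84 CPM in the siCtrl samples and to 66.19, 70.03 and 65.53 CPM in siMYCN. It summed to 44.15, 45.09 and 38.91 CPM in siHAND2 and to 70.38, 71.26 and 58.14 CPM in the combined knockdown. All 9 knockdown samples lay above all siCtrl samples, and siHAND2 lay between siCtrl and the other groups. The means were 2.1-fold, 1.334-fold and 2.08-fold that of siCtrl. Among the 15 genes the cluster was uneven, and 3 of them, PCDHA8, PCDHAC1 and PCDHAC2, held most of its CPM in every group.

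PCDHA8 (140220907 to 140391930, plus strand) is one of the neuronal surface genes chosen by its own promoter. It stood at 6.07, 10.3 and 6.73 CPM in siCtrl, 24.1, 22.8 and 22.8 in siMYCN, 13.4, 15.1 and 12.4 in siHAND2, and 27.5, 26.4 and 20.1 with both siRNAs. No knockdown sample overlapped the siCtrl samples, and the siHAND2 samples lay below those of the other knockdowns. The log2 changes were 1.51 (SE 0.14, limma adjusted p 1.5e-08), 0.78 (0.14, 1e-04) and 1.58 (0.14, 4.8e-10). PCDHA8 made up 23.9% ± 5.21 (SD, n = 3) of the cluster's CPM with the control siRNA, 34.6% ± 1.91 in siMYCN, 31.9% ± 1.68 in siHAND2 and 36.9% ± 2.24 with both siRNAs.

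PCDHAC1 (140306302 to 140391930) is a C-type gene, of the kind that neurons use more uniformly. Its level was 6.8, 7.24 and 6.41 CPM in siCtrl, 15.1, 16.3 and 14.4 in siMYCN, 8.79, 8.62 and 7.1 in siHAND2, and 14.8, 12.6 and 9.1 with both siRNAs. The siHAND2 samples overlapped siCtrl, whose highest sample exceeded the lowest of theirs. It rose by 1.06 in siMYCN (limma adjusted p 9.3e-07) and by 0.73 in the combined knockdown (2.8e-05). In siHAND2 the change of 0.23 was not called (0.17) until rescaling (0.37, adjusted p 0.0023).

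PCDHAC2, the other C-type gene (140345747 to 140391930), had the highest siCtrl CPM of the cluster. It stood at 12.8, 10.9 and 10.7 CPM in siCtrl, 16.7, 18.3 and 14.4 in siMYCN, 12.1, 10.1 and 8.84 in siHAND2, and 13.2, 12.3 and 8.49 with both siRNAs. Only the siMYCN samples were separate from siCtrl, with a rise of 0.48 (limma adjusted p 0.0091) whose call was lost without siMYCN replicate 2 (0.41, 0.059) and with no filter (0.063). The changes in siHAND2 (−0.14, adjusted p 0.43) and the combined knockdown (−0.03, 0.85) were not called, and the latter became a rise of 0.30 after rescaling (0.02). Its share of the alpha cluster went from 36.0% ± 4.81 in siCtrl to 24.4% ± 2.19, 24.1% ± 2.82 and 16.9% ± 2.12 in siMYCN, siHAND2 and the combined knockdown.

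PCDHA11 (140247098 to 140391930), a low alternative gene of the cluster with CACGTG in its window, stood at 0.517, 0.402 and 0.408 CPM in siCtrl. It stood at 1.04, 0.675 and 0.884 CPM in siMYCN, 0.657, 1.38 and 1.07 in siHAND2, and 1.42, 2.51 and 3.16 with both siRNAs. All knockdown samples lay above siCtrl, though the replicates spread widely. It rose by 1.19 in the combined knockdown (limma adjusted p 5.5e-07) and by 0.48 in siHAND2 (0.019), a call lost on rescaling although the change was larger (0.54, 0.054), and without siHAND2 replicate 2 (0.36, 0.11), siCtrl replicate 2 (0.46, 0.059) or siCtrl replicate 3 (0.47, 0.052). The change of 0.37 in siMYCN was not called (0.085), but was with the replicate number as a block (0.045). Without combined knockdown replicate 3 the gene did not pass the filter.

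The beta cluster summed to 22.59, 25.9 and 24.49 CPM in siCtrl, 44.86, 49.0 and 46.55 in siMYCN, 42.94, 39.83 and 38.57 in siHAND2, and 59.81, 62.03 and 48.2 with both siRNAs. The knockdown samples were all above siCtrl, and the means were 1.924-fold, 1.663-fold and 2.33-fold that of siCtrl. Of its 10 tested genes 9 rose in siMYCN, 8 in siHAND2 and 10 with both siRNAs (17.4%, 12.3% and 17.4% of all genes). The 5 adjacent genes from PCDHB9 to PCDHB13 each had a log2 change above 1 in the combined knockdown (1.05 for PCDHB11 to 1.28 for PCDHB9), and the other 5 tested beta genes had 0.37 (PCDHB7) to 0.70 (PCDHB14).

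PCDHB9 (140566701 to 140571112, plus strand) stood at 2.69, 2.9 and 2.96 CPM in siCtrl, 5.1, 6.17 and 5.33 in siMYCN, 5.1, 5.58 and 4.99 in siHAND2, and 9, 8.3 and 7.77 with both siRNAs. The single knockdowns overlapped each other, lay above siCtrl and lay below the combined knockdown. Its log2 changes were 0.76 (SE 0.11, limma adjusted p 7.8e-06), 0.69 (0.11, 1.6e-05) and 1.28 (0.11, 1.7e-10). PCDHB12 (140588291 to 140591699) had 1.15, 1.61 and 1.55 CPM in siCtrl, 3.44, 2.83 and 2.8 in siMYCN, 3.14, 2.86 and 3.15 in siHAND2, and 4.02, 6.14 and 4.68 with both siRNAs. It showed the same order, with changes of 0.72 (limma adjusted p 0.00013), 0.74 (6.4e-05) and 1.28 (4.3e-09).

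PCDHB13 (140593491 to 140596994) had 1.01, 0.83 and 0.949 CPM in siCtrl, 2.5, 2.81 and 2.36 in siMYCN, 2.8, 1.93 and 2.33 in siHAND2, and 2.74, 5.1 and 3.4 with both siRNAs. Every knockdown sample exceeded siCtrl, but the lowest combined sample lay within the range of the single knockdowns. Its changes were 0.88 (limma adjusted p 4.3e-05), 0.79 (9.8e-05) and 1.27 (3e-08). PCDHB14 (140601898 to 140605861), the beta gene with the highest siCtrl CPM, had 6.9, 7.58 and 6.84 CPM in siCtrl, 11.7, 13.8 and 13.3 in siMYCN, 11.1, 9.72 and 9.12 in siHAND2, and 13.5, 13.5 and 9.78 with both siRNAs. It too was higher in every knockdown sample, by 0.78 (2.2e-05), 0.44 (0.0056) and 0.70 (1.9e-05). PCDHB1 stood at the added constant in 11 samples and PCDHB6 in 3, so 2 genes of this cluster were at or near 0.

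The gamma cluster summed to 17.57, 18.99 and 14.28 CPM in siCtrl, 27.6, 26.16 and 23.86 in siMYCN, 27.25, 24.34 and 22.77 in siHAND2, and 27.4, 34.08 and 27.96 with both siRNAs. All knockdown samples exceeded siCtrl, and the means were 1.527-fold, 1.463-fold and 1.759-fold that of siCtrl. Only 5 of its 22 genes passed the filter, and of these 3 rose in siMYCN, 5 in siHAND2 and 5 with both siRNAs (17.4%, 12.3% and 17.4% of all genes). PCDHGB7 (140797214 to 140892549), the gamma gene with the highest siCtrl CPM, had 4.02, 4.35 and 2.99 CPM in siCtrl, 6.93, 5.93 and 5.44 in siMYCN, 5.22, 5.61 and 4.82 in siHAND2, and 5.2, 6.03 and 4.18 with both siRNAs. The single knockdowns were separate from siCtrl and the combined knockdown was not. Its changes were 0.57 (limma adjusted p 0.0014), 0.39 (0.021) and 0.36 (0.019). Without siCtrl replicate 3 the changes in siHAND2 and the combined knockdown were 0.26 (adjusted p 0.16) and 0.23 (0.16), and without siHAND2 replicate 2 (0.082), combined replicate 2 (0.13) or the filter (0.083 and 0.07) they were not called either. The C-type genes PCDHGC3, PCDHGC4 and PCDHGC5 were lower in every sample, the highest value being 0.57 CPM for PCDHGC3.

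**Figure D2:**
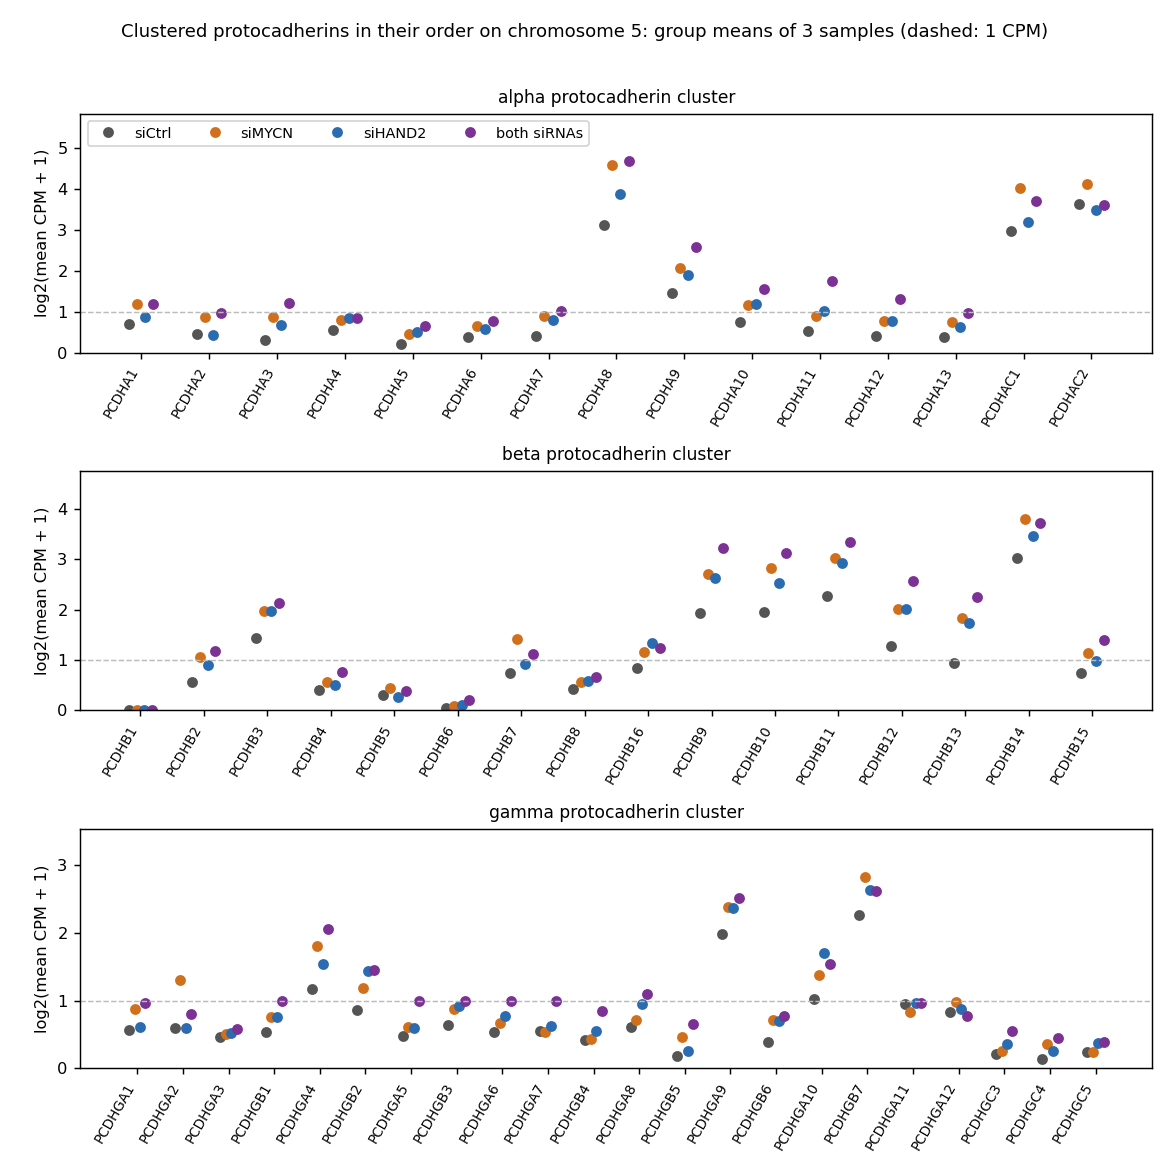
Level of each clustered protocadherin as log2(mean CPM + 1) over 3 samples, in chromosomal order within the alpha, beta and gamma clusters; colours are the 4 groups and the dashed line is 1 CPM. A few genes stand out in each cluster (PCDHA8, PCDHAC1 and PCDHAC2; PCDHB9 to PCDHB14; PCDHGA9 and PCDHGB7), and siCtrl is the lowest group for most of them, PCDHAC2 excepted.

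The non-clustered members moved in both directions. Of 25 tested, 8 rose and 2 fell in siMYCN, 9 rose and 7 fell in siHAND2, and 10 rose and 9 fell with both siRNAs. Of all tested genes 17.4%, 12.3% and 17.4% rose and 16.3%, 30.4% and 50.1% fell. Falls were thus not more frequent among these members than among all genes, and in siHAND2 the shares were close. After rescaling 8 rose and 4 fell, 11 rose and 5 fell, and 12 rose and 7 fell of 24. On that scale 25.4%, 26% and 37.8% of all genes rose and 22.4%, 24.8% and 32.9% fell. By CPM per kb of exon in siCtrl, the most abundant members were CDH2 (12.5), DCHS1 (11.9), CDH24 (9.89) and CELSR2 (8.32), followed by PCDH8 (4.28), CDH11 (2.58) and FAT1 (2.47). In these bulk samples fewer cells that express a gene and less RNA per cell cannot be told apart.

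Of the classical type I cadherins CDH2 was the one with a substantial level. CDH2 (N-cadherin; chromosome 18, 25530927 to 25757411, minus strand) is the main adhesion cadherin of neural cells. It stood at 105, 113 and 105 CPM in siCtrl, 150.0, 159 and 149 in siMYCN, 105, 95.2 and 88.8 in siHAND2, and 105, 93.8 and 61.3 with both siRNAs. The siMYCN samples were separate from all others, while siHAND2 and the combined knockdown overlapped siCtrl, and combined replicate 3 was the lowest of the 12. CDH2 rose by 0.50 in siMYCN (SE 0.14, limma adjusted p 0.0081; 0.051 with no filter) and did not pass in siHAND2 (−0.16, 0.37). In the combined knockdown it fell by 0.34 on the log2 scale (0.035), a call lost without combined replicate 3 (−0.12, adjusted p 0.26), on rescaling (0.01, 0.9), with no filter (0.1), and without any 1 of the siCtrl replicates (0.057 to 0.11).

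CDH1 (E-cadherin; chromosome 16, 68771193 to 68869446), the adhesion cadherin of epithelia, stood at the added constant in 11 samples and at 0.0245 CPM in combined knockdown replicate 3, below the worth of 3 reads. CDH4 (R-cadherin of the retina) rose by 0.73 in siMYCN (limma adjusted p 0.00051), from 0.991, 1.35 and 0.575 CPM in siCtrl to 1.66, 2.45 and 2.68. Its mean exceeded 1 CPM only in siMYCN (2.263, against 0.9711 in siCtrl, 0.529 in siHAND2 and 0.5765 in the combined knockdown). CDH4 thus passed the filter through the samples in which it rose, which favours that call. CDH3 (P-cadherin) was at 0.716, 1.21 and 1.32 CPM in siCtrl and at 0.857, 0.441 and 0.488 in the combined knockdown, a fall of 0.38 (0.027) whose call was lost without combined replicate 2 (−0.31, 0.11) or 3 (−0.34, 0.079). CDH15 (M-cadherin of muscle) lay below the filter and was not tested. Its values were 0.936, 0.89 and 0.889 CPM in siCtrl, 0.343, 0.173 and 0.306 in siMYCN, and 1.84, 1.53 and 0.976 in siHAND2. CDH4, CDH3 and CDH15 were chosen after their values were seen.

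The type II cadherins summed to 108.0, 110.1 and 112.6 CPM in siCtrl, to 72.16, 74.6 and 74.89 in siHAND2 and to 87.49, 74.34 and 71.37 with both siRNAs, so all samples with siHAND2 lay below siCtrl. Of 7 tested members 3 rose and none fell in siMYCN, 2 rose and 3 fell in siHAND2, and 2 rose and 2 fell with both siRNAs. Of all genes 17.4%, 12.3% and 17.4% rose and 16.3%, 30.4% and 50.1% fell. After rescaling 4 members rose and 3 fell in siHAND2 (26% and 24.8% of all genes). On that scale 4 rose and 2 fell with both siRNAs (37.8% and 32.9%). CDH11 and CDH7 accounted for the larger falls. CDH11 (chromosome 16, 64977657 to 65156041, minus strand), a cadherin of mesenchymal and neural crest cells, stood at 32.9, 35.9 and 34.1 CPM in siCtrl and 31.7, 31.4 and 32.8 in siMYCN. It stood at 8.61, 7.06 and 6.43 CPM in siHAND2 and 7.87, 5.96 and 4.02 with both siRNAs. All samples that received siHAND2 lay far below the rest. Its change was −0.10 in siMYCN (SE 0.14, limma adjusted p 0.64), −2.08 in siHAND2 (0.14, 2e-11) and −2.38 in the combined knockdown (0.14, 3.3e-13). It kept the call in the latter without replicate 3 (−2.17) and after rescaling (−2.06). The summed level of the 7 fibroblast markers, of which COL1A1, PDGFRB and THY1 had a mean of at least 1 CPM, was 28.9 to 33.5 CPM in siCtrl. It was 32.1 to 33.4 in siMYCN, 19.3 to 21.0 in siHAND2 and 12.6 to 19.1 with both siRNAs. The part of this in the CDH11 result was not tested.

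CDH7 (chromosome 18, 63417488 to 63549203, plus strand), a cadherin of migrating neural crest cells, stood at 26.8, 28.8 and 31.2 CPM in siCtrl and 26.0, 26.9 and 31.2 in siMYCN. It stood at 14.1, 15.1 and 13.8 CPM in siHAND2 and 9.79, 9.22 and 7.00 with both siRNAs. siMYCN overlapped siCtrl, siHAND2 lay below both, and the combined knockdown lay below siHAND2. The changes were −0.05 (limma adjusted p 0.8), −0.96 (4.8e-07) and −1.64 (8.5e-12). CDH6 (chromosome 5, 31193762 to 31329254, plus strand), a cadherin of kidney and early neural crest, moved in opposite directions in the single knockdowns. It stood at 5.48, 5.5 and 6.54 CPM in siCtrl, 14.9, 13.5 and 16.0 in siMYCN, 3.99, 3.88 and 4.19 in siHAND2, and 6.95, 7.00 and 6.12 with both siRNAs. The rise in siMYCN was 1.21 (SE 0.11, limma adjusted p 8.8e-09) and the change in siHAND2 −0.44 (0.0022). In the combined knockdown it was 0.17 and not called (0.17) until rescaling (0.48, adjusted p 0.00036).

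CDH24 (chromosome 14, 23516270 to 23526748, minus strand), which also binds catenins, had the highest siCtrl CPM of the type II genes. It stood at 38.5, 36.1 and 36.6 CPM in siCtrl, 39.4, 37.9 and 39.3 in siMYCN, 39.7, 42.6 and 43.0 in siHAND2, and 55.3, 46.2 and 49.99 with both siRNAs. The combined samples lay above all others, with a rise of 0.43 (limma adjusted p 0.00089). The change in siHAND2 (0.17, 0.21) was called only after rescaling (0.32, adjusted p 0.0044). CDH22 (chromosome 20, 44802372 to 44937138, minus strand), a brain cadherin, had 0.771, 0.662 and 0.976 CPM in siCtrl, 1.56, 1.36 and 1.69 in siMYCN, 1.33, 1.18 and 1.83 in siHAND2, and 1.14, 0.777 and 1.00 with both siRNAs. It rose in each single knockdown (0.49, limma adjusted p 0.0051, and 0.43, 0.0097, the latter not called without siHAND2 replicate 3 at 0.32 and 0.081) and overlapped siCtrl in the combined one (0.13, 0.39). CDH5 (VE-cadherin of endothelium), named after its values were seen, rose by 0.68, 0.51 and 0.67 from siCtrl values of 0.441, 0.525 and 0.505 CPM. CDH5 and CDH22 passed the filter through knockdown samples (siCtrl means of 0.4904 and 0.803 CPM), which favours their rises.

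The delta protocadherins held both rises and falls. Their summed CPM was 44.15 ± 1.239 in siCtrl and 49.93, 51.04 and 52.96 on average in the knockdowns (1.131-fold, 1.156-fold and 1.2-fold). All knockdown samples lay above all siCtrl samples in this sum. Of 7 tested, 2 rose and 1 fell in siMYCN, 3 rose and 1 fell in siHAND2, and 5 rose and 2 fell with both siRNAs, where 17.4%, 12.3% and 17.4% of all genes rose and 16.3%, 30.4% and 50.1% fell. After rescaling 2 rose and 2 fell, 3 rose and 0 fell, and 5 rose and 2 fell. On that scale 25.4%, 26% and 37.8% of all genes rose and 22.4%, 24.8% and 32.9% fell. PCDH17 (chromosome 13, 58205789 to 58303066, plus strand), which acts in axon extension and synapses, had the largest rise of them in the combined knockdown. It stood at 5.45, 5.43 and 6.08 CPM in siCtrl, 15, 15.5 and 17.9 in siMYCN, 10.0, 9.42 and 11.5 in siHAND2, and 22.9, 21.8 and 21.5 with both siRNAs. The 4 groups did not overlap, in the order siCtrl, siHAND2, siMYCN and combined. The changes were 1.36 (SE 0.11, limma adjusted p 1.2e-09), 0.76 (0.11, 3.8e-06) and 1.79 (0.11, 3.7e-13).

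PCDH10 and PCDH19 rose with siHAND2 and not with siMYCN. PCDH10 (chromosome 4, 134070445 to 134115766, plus strand), which guides axon growth, had 2.75, 1.78 and 2.42 CPM in siCtrl, 2.06, 2.69 and 1.98 in siMYCN, 6.9, 4.94 and 4.76 in siHAND2, and 6.14, 6.74 and 4.29 with both siRNAs. Samples with siHAND2 were all above those without it, with changes of −0.03 (limma adjusted p 0.9), 0.97 (1.1e-05) and 1.01 (2e-06). PCDH19 (X chromosome, 99546642 to 99665272, minus strand), a gene mutated in an inherited epilepsy, had 2.07, 1.73 and 1.13 CPM in siCtrl, 1.42, 1.41 and 1.51 in siMYCN, 5.35, 3.71 and 2.93 in siHAND2, and 2.37, 3.01 and 2.1 with both siRNAs. Its changes were −0.10 (0.67), 0.91 (4e-05) and 0.41 (0.023). The last call was lost without siCtrl replicate 3 (0.26, adjusted p 0.17), without combined replicate 2 (0.30, 0.13) and with no filter (0.093). The replicates of siHAND2 differed widely, but all lay above siCtrl.

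PCDH18 and PCDH8 fell in the combined knockdown. PCDH18 (chromosome 4, 138440073 to 138453653, minus strand) had 8.18, 6.76 and 7.96 CPM in siCtrl, 3.83, 4.99 and 4.85 in siMYCN, 5.86, 5.8 and 5.12 in siHAND2, and 2.87, 2.49 and 1.68 with both siRNAs. The knockdowns were all below siCtrl, and the combined knockdown was the lowest. Its changes were −0.64 (limma adjusted p 0.00051), −0.39 (0.02, not called after rescaling at −0.25, adjusted p 0.066, with no filter at 0.081, or without siCtrl replicate 1, siCtrl replicate 3 or siHAND2 replicate 3 at 0.07 to 0.081) and −1.38 (1.2e-09). PCDH8 (chromosome 13, 53418109 to 53422776, minus strand), a protocadherin of cell sorting and synapses, had 21.5, 21.8 and 22.8 CPM in siCtrl, 18.0, 15.6 and 20.3 in siMYCN, 20.8, 20.6 and 19.2 in siHAND2, and 12.7, 10.8 and 10.3 with both siRNAs. It fell by 0.92 on the log2 scale in the combined knockdown (1e-07). The values for siMYCN (−0.29, 0.051) and siHAND2 (−0.12, 0.41) did not pass. The change in siMYCN passed when the replicate number was a block (0.034).

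PCDH9 (chromosome 13, 66876966 to 67804469, minus strand) was called in the combined knockdown and in neither single one. It had 3.28, 3.31 and 2.98 CPM in siCtrl, 2.74, 2.77 and 2.54 in siMYCN, 2.85, 3.83 and 3.12 in siHAND2, and 4.89, 5.57 and 4.31 with both siRNAs. The combined samples lay above all others, a change of 0.50 (limma adjusted p 0.00071) against −0.18 (0.25) and 0.02 (0.91). Its span holds antisense genes on the other strand, and whether counting used strand is not given in the sources used here, so their reads cannot be told apart. PCDH1, named after its values were seen, rose by 1.00 in siMYCN (1.4e-05) and 0.92 in the combined knockdown (8.3e-06).

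Among the members outside these groups PCDH20 and CDH23 were tested. PCDH20 (chromosome 13, 61983819 to 61989656, minus strand) had 2.67, 2.83 and 3.07 CPM in siCtrl, 3.32, 4.13 and 3.22 in siMYCN, 1.17, 0.648 and 1.02 in siHAND2, and 1.56, 1.09 and 0.585 with both siRNAs. All samples with siHAND2 lay below all samples without it. The changes were 0.24 (limma adjusted p 0.24), −0.99 (7e-06) and −0.92 (6.7e-06). CDH23 (chromosome 10, 73156691 to 73575705, plus strand), the tip-link cadherin of inner-ear hair cells, had 1.73, 2.17 and 2.00 CPM in siCtrl, 3.03, 2.89 and 2.49 in siMYCN, 1.99, 2.38 and 1.07 in siHAND2, and 1.65, 1.45 and 1.41 with both siRNAs. None of its changes against siCtrl passed (0.36, −0.10 and −0.24), but that in siMYCN, at an adjusted p of 0.057, passed with the replicate number as a block (0.027). CDH23 also overlaps genes on the other strand.

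The FAT and DCHS genes moved apart. Of 4 tested, 1 rose and 1 fell in siMYCN, 2 rose and 2 fell in siHAND2, and 1 rose and 2 fell with both siRNAs. Of all genes 17.4%, 12.3% and 17.4% rose and 16.3%, 30.4% and 50.1% fell. FAT1 (chromosome 4, 187508937 to 187644988, minus strand), a giant cadherin that restrains growth and shapes cell migration, had 39.2, 44.4 and 36.0 CPM in siCtrl, 20.8, 23.6 and 20.3 in siMYCN, 19.4, 20.3 and 15.6 in siHAND2, and 9.94, 9.61 and 7.02 with both siRNAs. The single knockdowns overlapped each other, lay far below siCtrl, and lay above the combined knockdown. The changes were −0.85 (SE 0.13, limma adjusted p 1.4e-05), −1.07 (0.13, 2.9e-07) and −2.06 (0.13, 6.1e-13), the last −1.73 after rescaling and −1.92 without combined replicate 3. DCHS1 (chromosome 11, 6642555 to 6677081, minus strand), the ligand of FAT4, had 124, 143 and 119 CPM in siCtrl, 174, 184 and 175 in siMYCN, 199, 171 and 159 in siHAND2, and 204, 206 and 155 with both siRNAs. All knockdown samples exceeded siCtrl, by 0.47 (0.0057), 0.45 (0.0056) and 0.54 (0.00058). FAT4, its receptor, was near the filter, with 1.54, 1.99 and 1.5 CPM in siCtrl and 0.904, 0.881 and 0.756 in the combined knockdown, a change of −0.53 (0.0021). In siMYCN it stood at 2.48, 2.94 and 1.91 CPM, a difference of 0.36 that was not called (0.056) except with the replicate number as a block (0.027). In siHAND2 it fell by 0.42 on the log2 scale (0.019), a call lost on rescaling (−0.33, 0.06), with no filter (0.055), and without siHAND2 replicate 3 (−0.30, 0.13), siHAND2 replicate 2 (0.052) or siCtrl replicate 2 (0.099). FAT3 rose by 0.31 in siHAND2 (limma adjusted p 0.032), a call lost with no filter (0.062) and without any of several single samples (up to 0.14). In siMYCN its change of −0.26 was not called (0.087) until rescaling (−0.25, 0.032). FAT3 and FAT4 were chosen after their values were seen.

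The CELSR genes rose with siHAND2. CELSR2 (chromosome 1, 109792641 to 109818379, plus strand), a polarity receptor of neurons and ciliated cells, had 111, 114 and 95.4 CPM in siCtrl, 131, 111 and 125 in siMYCN, 205, 165 and 154 in siHAND2, and 164, 191 and 142 with both siRNAs. siMYCN overlapped siCtrl, and all samples with siHAND2 lay above both. The changes were 0.20 (limma adjusted p 0.26), 0.70 (0.00012) and 0.62 (0.00018). CELSR3, of axon tract formation and named after its values were seen, rose by 0.41 in siHAND2 (0.0058; without siCtrl replicate 3, 0.33 and 0.053) and 0.65 in the combined knockdown (2.2e-05) and not in siMYCN (0.21, 0.16). CELSR1 reached at most 0.53 CPM.

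**Figure D3:**
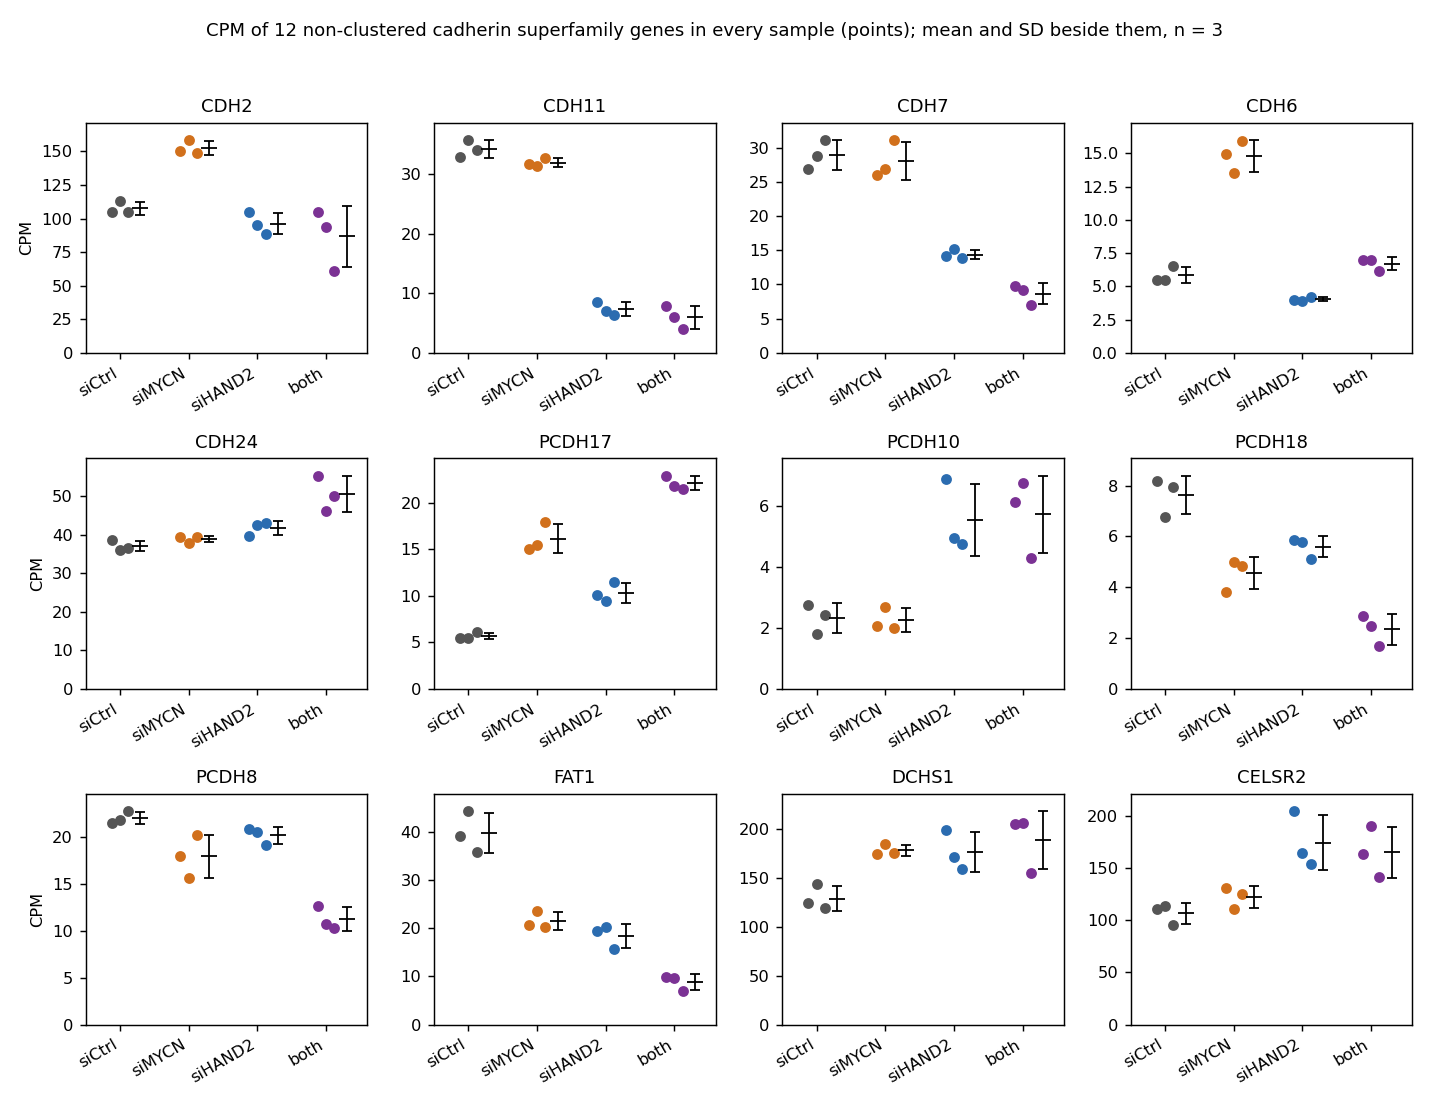
CPM of 12 non-clustered cadherin superfamily genes in each of the 3 samples per group (points), with the mean and SD beside them. CDH11 and CDH7 are low in both groups that received siHAND2, FAT1 and PCDH18 are lowest in the combined knockdown, PCDH17 is highest there, and CDH6 is high in siMYCN alone.

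Members below the filter were not tested. CDH16 stood at the added constant in all 12 samples, and 16 members did in at least 1. PCDH7 stood at 0.275, 0.32 and 0.157 CPM in siCtrl and 1.24, 0.84 and 1.2 in siMYCN. PCDH11X stood at the constant in all siCtrl and siMYCN samples and at 0.088, 0.0309 and 0.0704 CPM in siHAND2, where the worth of 3 reads was up to 0.0949 CPM. Both were chosen after their values were seen.

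**Figure D4:**
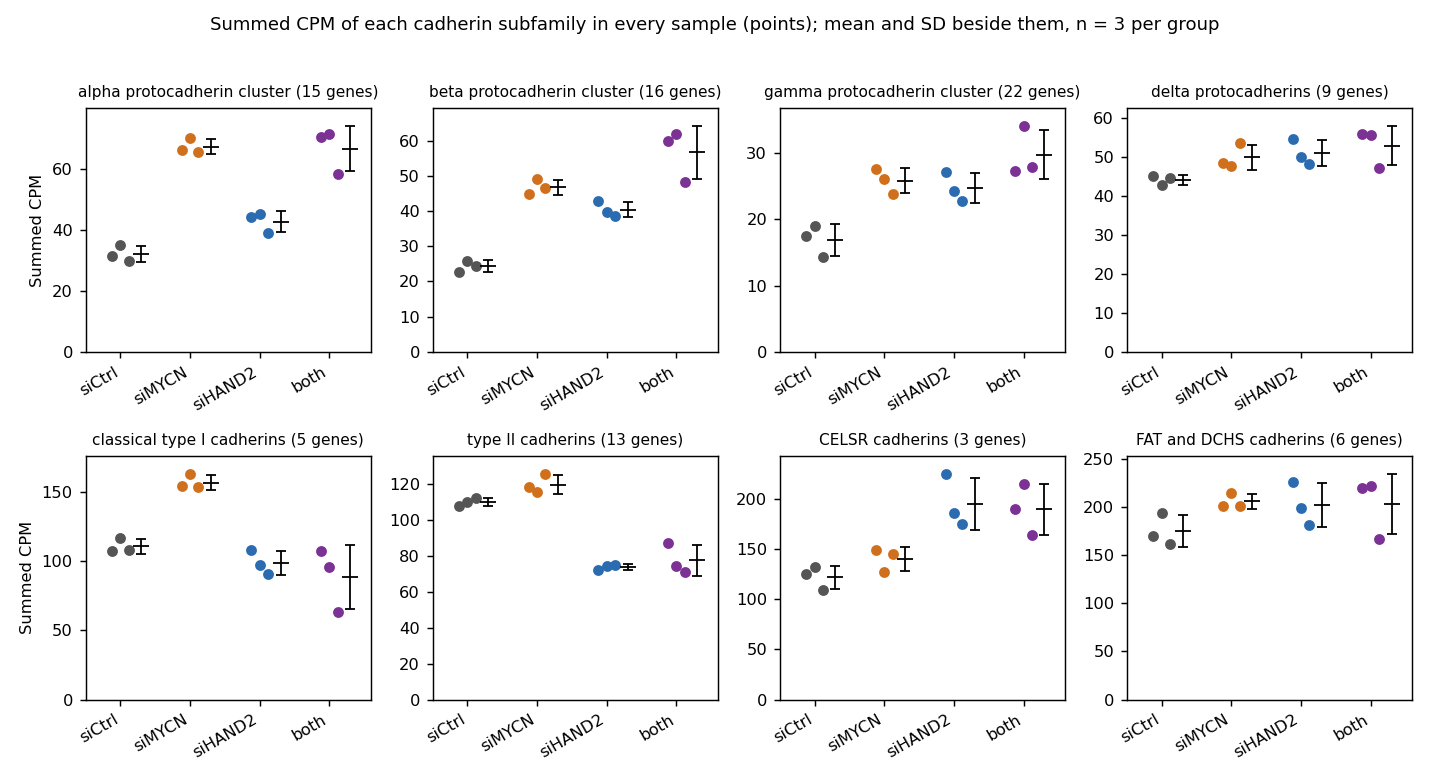
Summed CPM of 8 subfamilies in each sample (points), with the mean and SD of the 3 samples per group beside them. The alpha, beta and gamma clusters are lowest in siCtrl, type II cadherins are lower in both groups with siHAND2, classical type I cadherins (mostly CDH2) are highest in siMYCN, and CELSR cadherins are higher with siHAND2.

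Set directly against siHAND2, siMYCN had 16 members higher and 4 lower (26.1% and 8.98% of all genes, 35% in either direction). All siMYCN samples lay above all siHAND2 samples for 19 members and below them for 9 (44.9% and 15.7% of all genes). After rescaling the called counts were 13 and 10, against 22.3% and 22.2% of all genes. CDH11 was higher in siMYCN by 1.99 (limma adjusted p 3.4e-11), CDH6 by 1.65 (7.2e-12), PCDH20 by 1.23 (4.2e-07), CDH7 by 0.91 (1.4e-06) and CDH2 by 0.66 (0.0007). PCDH10 and PCDH19 were each lower by 1.00 on the log2 scale (1.1e-05 and 1.5e-05), and CELSR2 by 0.50 (0.0041). Of 22 tested clustered genes 5 were higher in siMYCN and none lower (26.1% and 8.98% of all genes), and 4 were higher after rescaling (22.3%). Higher values were thus not more frequent than among all genes. Among the 5 were PCDHAC1 (0.83, 2.1e-05), PCDHA8 (0.73, 0.00028), PCDHAC2 (0.62, 0.001) and PCDHB14 (0.34, 0.031), whose call was lost on rescaling (0.20, 0.065). FAT1, DCHS1, PCDHB9, PCDHB12 and PCDHB13 did not pass. The interval of the FAT1 difference was −0.04 to 0.49, and that of DCHS1 −0.24 to 0.28.

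The interaction asks whether the effect of siHAND2 differs with and without siMYCN. It was called for 5 members, 1 positive and 4 negative, where 0.355% and 3.65% of all genes were called (4.01% in either direction; 1.69% and 4.46% after rescaling). PCDH9 had 0.66 (limma adjusted p 0.023): its single changes were near 0 and the combined one was a rise. CDH22 had −0.80 (0.014) and PCDHA8 −0.71 (0.048), so that their combined changes of 0.13 and 1.58 lay below the sum of the single ones. CDH7 had −0.63 (0.031), with a combined fall beyond that sum, and CDH6 −0.60 (0.028). On rescaling CDH6 and PCDHA8 were not called (0.082 and 0.11), while 1 classical type I cadherin was newly called negative. The rescaled counts were 1 positive and 3 negative. With no filter on low values none of the 5 was called (0.739% of all genes). Leaving out single libraries moved the count of members from 1 (without siCtrl replicate 1) to 16 (without combined knockdown replicate 1). The shares of all genes in these fits are not given here, so a move of the members cannot be told from one of all genes. The calls of PCDH9, CDH6, CDH7 and PCDHA8 were each lost on leaving out any of several single libraries (adjusted p up to 0.082, 0.1, 0.11 and 0.16), with the sign kept. For FAT1 the interaction was −0.13 (adjusted p 0.67) and for PCDHB9 −0.17 (0.5), with intervals of −0.51 to 0.25 and −0.49 to 0.15.

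Genes that act with cadherins were counted from lists of their roles. The counts are to be read against all tested genes, of which 17.4% rose and 16.3% fell in siMYCN, 12.3% and 30.4% in siHAND2, and 17.4% and 50.1% in the combined knockdown. Counts after rescaling are to be read against 25.4% and 22.4%, 26% and 24.8%, and 37.8% and 32.9%. Of 11 tested catenins and plaque proteins, which tie cadherins to the cytoskeleton, 6 rose and 2 fell in siMYCN, 4 rose and 2 fell in siHAND2, and 6 rose and 3 fell with both siRNAs (7 and 2, 6 and 2, and 8 and 2 after rescaling). The largest changes in the combined knockdown were falls of CTNNAL1, an alpha-catenin relative (−2.23, limma adjusted p 7.3e-15), and PKP4, a p120-type plaque protein (−1.99, 6e-13). CTNNAL1 stood at 56.4, 52.7 and 58.2 CPM in siCtrl and 12.4, 9.92 and 11.1 in the combined knockdown. Of 5 other tested members of the superfamily (calsyntenins, CDHR1 and RET), 3 rose and none fell in siMYCN, and 2 rose and 1 fell in siHAND2 and also with both siRNAs. The rises with both were of the synaptic calsyntenins CLSTN2 (2.00, 2.2e-12) and CLSTN3 (1.35, 6.5e-09).

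Of 13 planar polarity and FAT pathway genes, 1 rose and 2 fell in siMYCN, 1 rose and 7 fell in siHAND2, and none rose and 9 fell in the combined knockdown. After rescaling 4 rose and 4 fell, 4 rose and 7 fell, and 4 rose and 7 fell. On that scale 25.4%, 26% and 37.8% of all genes rose and 22.4%, 24.8% and 32.9% fell. The largest falls were of FJX1, a homologue of the kinase that modifies FAT and Dachsous cadherins in flies (−1.30, limma adjusted p 8.5e-10), and the polarity protein VANGL1 (−1.19, 3.3e-08). Of 4 tested nectins and afadin genes, none rose and 2 fell in the combined knockdown, NECTIN3 (−1.07, 2.5e-08) and PVR (−0.98, 6.9e-08). These falls were about as frequent as among all genes (50.1%). After rescaling 1 rose and 2 fell. Of 9 proteases that shed cadherins 3 fell in the combined knockdown, with ADAM9 (−0.92, 4.8e-07) and ADAM15 (−0.88, 1e-06) in front, and none rose. After rescaling 5 rose and 3 fell. Falls of the proteases were less frequent than among all genes before rescaling (50.1%) and about as frequent after it (32.9%). Of 13 regulators of protocadherin promoter choice, none was called in siMYCN, 5 fell in siHAND2, and 1 rose and 9 fell with both siRNAs. After rescaling 1 rose and 1 fell, 3 rose and 5 fell, and 3 rose and 9 fell. The larger falls were of the cohesin subunit SMC1A (−1.33, 2.5e-09) and the silencing protein SMCHD1 (−1.02, 2.2e-08). Of 7 repressors of epithelial cadherin 1 rose and 4 fell in the combined knockdown (3 and 3 after rescaling), with TWIST1 (−0.83, 5e-07) and SNAI2 (−0.83, 5.7e-07) in front. These counts were near the shares of all genes (17.4% and 50.1%, and 37.8% and 32.9% after rescaling).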

How the data were processed

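Expression was measured by RNA-seq in 12 samples. The values are CPM per gene, deposited by the authors with a constant of 0.0001 added, and STAR 2.5.1, Partek and hg19 (GRCh37) are named in the submitters' processing notes. The counting method, strand and annotation are not given in the sources used here. All columns mapped to samples (0 left over).

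From these values log2(CPM + 1) was fitted with limma 3.58.1 (R 4.3.3; 4 group means, trended prior, 8 residual degrees of freedom, two-sided) for the 12680 genes with a mean of at least 1 CPM, with Benjamini-Hochberg adjustment over them and 5 contrasts. The procedure was tested on simulated data. Depth was estimated from the CPM worth of 1 read, and intervals and floors cover counting error only. For rescaling, each sample was divided by the median, across genes averaging at least 5 CPM, of its ratios to the genes' geometric means. Exon lengths came from GENCODE release 44.

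Values per sample are given for the 4 largest called rises and falls in each knockdown, the 2 largest interactions of each sign, the most abundant member of each subfamily, and CDH1, CDH2 and CDH11. For each partner list the 2 largest called changes in the combined knockdown are named. The members and lists were chosen with earlier results of these data known. Samples with the same replicate number deviated together in siMYCN and siCtrl (correlations of 0.44, 0.15 and 0.31) and in siMYCN and siHAND2 (0.33, 0.14 and 0.32), with the numbers taken from the labels. Alternatives were other pseudocounts and filters, rescaling, the replicate number as a block, the compared groups alone, and leaving out each sample.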

Additional observations from a re-analysis of the deposited data

Results flagged for a closer look

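For 5 members the effect of siHAND2 differed with and without siMYCN by the limma interaction test, on the scale of log2(CPM + 1) and with adjustment over all genes tested. CDH22, a brain cadherin, had −0.80 (adjusted p 0.014), having risen in each single knockdown and overlapped siCtrl in the combined one. PCDH9, a delta protocadherin, had 0.66 (0.023) and was called against siCtrl in the combined knockdown. CDH6 had −0.60 (0.028), CDH7 −0.63 (0.031) and PCDHA8 −0.71 (0.048). With no filter on low values the adjusted p of these 5 ranged from 0.053 for CDH22 to 0.23 for PCDHA8, so none was called. The part of combined knockdown replicate 3, which stood apart in its share of CPM in listed genes, was not tested beyond leaving that library out.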

How the results depend on the processing

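Of 124 called changes, 96 kept the call and the sign in every alternative that still tested the gene. These 124 were changes against siCtrl or interactions, of all called members, MYCN, HAND2 and the named partner genes. The partner genes had been picked as the largest called changes of their lists, and MYCN and HAND2 were the siRNA targets. All of their calls were kept, so the share kept among the members alone was lower. Alternatives in which a gene fell below the filter were not counted. With a filter at a mean of 5 CPM fewer genes were tested, 20 of them members and 8 of these clustered. Called members were 15 in siMYCN, 15 in siHAND2, 18 in the combined knockdown, 10 in siMYCN against siHAND2 and 3 for the interaction. The shares of all genes were 33.9%, 43.6%, 69.7%, 35.1% and 4.2%. Clustered protocadherins called higher against siCtrl were 8, 6 and 7 (16.9%, 11% and 15.1% of all genes). With no filter 61 members, 42 of them clustered and higher, were called in the combined knockdown (45.2% of all genes). For the interaction 0 were called by limma (0.739% of all genes), with 21 at an unadjusted p under 0.05, against 19 with the filter. With the filter on siCtrl alone, chosen after seeing the data, 13 clustered genes were higher in the combined knockdown; fewer genes were tested. With the replicate number as a block 11 members were called for the interaction, where 10.1% of all genes were called (4.01% without the block). The cause was not tested. The correlations of same-numbered samples were 0.32, −0.07 and 0.42 in siHAND2 and siCtrl and −0.08, 0.41 and 0.08 in the combined knockdown and siCtrl, so not every pair was positive. The main fit did not pair samples by number, whereas the block paired them in all 4 groups.

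Leaving out 1 sample at a time gave 22 to 28 called members in siMYCN, 27 to 32 in siHAND2, 35 to 38 in the combined knockdown, 16 to 20 in siMYCN against siHAND2 and 1 to 16 for the interaction. Clustered genes called higher were 13 to 18, 13 to 15 and 18 to 21. Without combined knockdown replicate 3, 22.2% of all genes rose and 45.7% fell in the combined knockdown. The shares for the other left-out samples are not given here, so these ranges do not tell members from all genes. After rescaling, with and without the block, the sign changed for CDH2 in the combined knockdown (0.0124), FAT1 interaction (0.0361), PCDH8 in siHAND2 (0.0327), PCDHAC2 in siHAND2 (0.0036) and the combined knockdown (0.30), PCDHB12 interaction (0.0041) and PCDHB9 interaction (0.0153); CDH2 was the one of these called before rescaling. Leaving out 1 sample changed the sign of 10 uncalled values. The ranges were −0.40 to 0.0148 for CDH11 interaction, −0.25 to 0.10 for CDH23 in siHAND2, −0.12 to 0.00775 for CDH7 in siMYCN, −0.24 to 0.0114 for FAT1 interaction, −0.0443 to 0.23 for PCDH10 interaction and −0.15 to 0.0651 for PCDH10 in siMYCN. They were −0.24 to 0.01825 for PCDH19 in siMYCN, −0.33 to 0.01996 for PCDH20 interaction, −0.07225 to 0.091 for PCDH9 in siHAND2 and −0.15 to 0.15 for PCDHAC2 in the combined knockdown. The cause of these sign changes was not tested. Depth limits genes near 3 reads per library, and the unknown assignment of reads among clustered genes limits single values there.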
